A study of Mus musculus with 6 samples.

Results

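The 39 genes described here are a set of DNA replication and mitosis genes, found by symbol in a table of 54532 genes from wild-type mouse cultures. They comprise 22 genes of the G1/S phase, which build and fire replication origins or supply nucleotides, and 17 genes of the G2/M phase, which condense, attach and separate the chromosomes. All 39 were found once each, and all 39 passed the filter on low counts, as 14932 genes of the table did. RNA-seq of poly-A RNA had been made from primary cultures labelled as aortic endothelial cells of wild-type mice, 3 female and 3 male, to ask how the sexes differ. Both sexes were left untreated and grown in F-12 medium with bovine serum, antibiotics, heparin and growth factors for endothelium. The labels give no strain or age, and do not say if each library is a separate animal or culture. A p-value here therefore reflects the scatter of 3 libraries per sex, which could be technical only.

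A dividing cell loads the Mcm2-7 helicase onto origins in G1 with the help of Cdc6 and Cdt1, converts it into a running helicase with Cdc45, Mcm10 and the GINS complex, and copies DNA behind it with polymerases held by the sliding clamp Pcna. Transcription of these genes is driven by E2F factors late in G1. Genes of mitosis peak later, under the control of the DREAM and MuvB complexes with B-Myb and FoxM1. In an intact adult aorta endothelial cells rarely divide, whereas in culture with serum they cycle, and the RNA of both gene groups is then commonly read as a sign of proliferation.

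Library totals were 17410996 to 22993574 counts. Levels are given as CPM, which are counts scaled to library size with TMM factors. Fold changes are log2 ratios (female over male) with the SE of the edgeR fit. A gene was called at a Benjamini-Hochberg adjusted p under 0.05 over all genes tested. The label of an endothelial culture was not borne out by its defining markers: 11 of 12 stayed under 1 CPM throughout, 4 of them (Cdh5, Tie1, Cldn5 and Robo4) with 0 counts in all 6 libraries, and their sum was 2.35 to 4.33 CPM in female and 4.21 to 6.61 CPM in male libraries. Fibroblast markers summed to 32650 to 40635 CPM in female and 17527 to 25299 CPM in male libraries, with 5 of 10 higher, 2 lower and 0 of 10 under 1 CPM throughout. Smooth muscle markers summed to 135 to 136 CPM in female and 147 to 180 CPM in male libraries (of 5 tested, 1 higher and 1 lower), and macrophage markers to 29.5 to 38.4 CPM in female and 12.6 to 19.0 CPM in male libraries (of 4 tested, 2 higher and 0 lower, with Ptprc and Tyrobp at 0). The part of the cell makeup in the results below was not tested. The lowest correlation of log2 CPM within a sex was 0.983 for female libraries and 0.966 for male libraries, the last between male replicates 1 and 3, so values without male replicate 3 are given where they differ. In bulk RNA, more cells in a phase and more RNA of a gene per cell cannot be told apart.

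Female cultures had more RNA of 5 genes that license and start replication origins, Cdt1, Mcm6, Mcm3, Mcm4 and Mcm10. These were 5 of 12 licensing and helicase genes. By edgeR, none of the 10 other replication genes or the 17 mitotic genes was called in either direction. Among all genes tested, 9.68% were called higher and 8.62% lower in female, so 5 of 22 replication genes (22.7%) lay above that background and 0 of 17 mitotic genes lay below it. The count of 5 was 4 without female replicate 1, 3 without female replicate 2 or male replicate 1, and 2 (Cdt1 and Mcm6) without female replicate 3 or male replicate 2. Without male replicate 3 it was 7, and the share of all genes called higher in that fit was 16.2%. Over the whole table, 1446 genes were called higher with all 6 libraries. The whole-table number was 989, 967 and 1005 without female replicates 1, 2 and 3. It was 1319 and 1020 without male replicates 1 and 2, so calls fell over the whole table too. The median log2 fold change was 0.18 for the replication genes and 0.26 for the mitotic genes, against -0.01 for all genes tested. Fold changes were above 0 in 14 of 22 replication and 15 of 17 mitotic genes, compared with 49.0% of all genes tested. The plot of fold changes by role shows the called genes in 1 role group and small positive values in most mitotic genes.

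**Figure D1:**
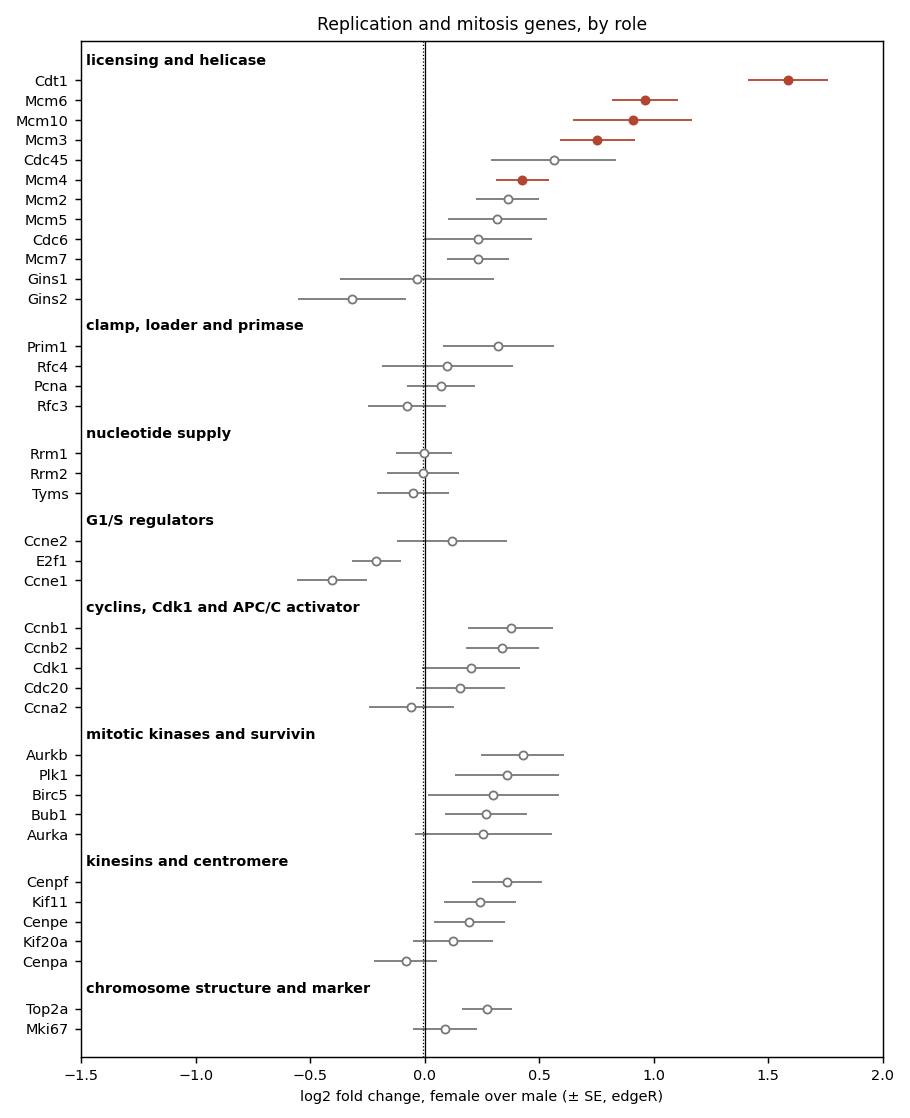
Log2 fold change of female over male for the 39 genes, grouped by role, with bars for ± SE from edgeR. Filled red points are the 5 called genes and open grey points the 34 not called. The dotted line is the median of all genes tested (-0.01). All filled points stand in the licensing and helicase group, with Cdt1 farthest to the right at 1.59.

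Cdt1, the factor that recruits the Mcm2-7 helicase to origins and is destroyed once S phase begins, differed most. It stood at 39.7, 42.8 and 48.0 CPM in female libraries, against 12.6, 12.5 and 18.4 CPM in male libraries. Every female library lay far above the highest male library, replicate 3. The fold was 3.00 (log2 1.59 ± 0.17, edgeR adjusted p = 0.000170). Its partner in loading, the ATPase Cdc6, did not pass the test, with a mean of 4.12 ± 0.809 CPM in female libraries and 3.49 ± 0.195 CPM in male libraries (SD, n = 3 each; edgeR adjusted p = 0.57). The ratio of Cdt1 to Cdc6 counts, which is not per length, was 8.65 to 11.9 in female and 3.38 to 5.40 in male libraries. Gmnn, encoding the Cdt1 inhibitor geminin and named for that partnership after its values were seen, averaged 3.67 ± 0.277 CPM in female libraries and 2.70 ± 0.103 CPM in male ones and was not called (edgeR adjusted p = 0.237).

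The Mcm genes encode the ring-shaped replicative helicase. Mcm6 had 58.3, 64.2 and 70.1 CPM in female libraries, against 28.0, 31.9 and 38.9 CPM in male libraries. Mcm3 had 21.7, 24.3 and 26.1 CPM in female libraries, against 11.9, 13.9 and 17.03 CPM in male libraries. Neither gene overlapped between the sexes, and in both the highest male value was that of replicate 3. Mcm6 rose by 0.96 ± 0.14 (fold 1.95, edgeR adjusted p = 0.00117) and Mcm3 by 0.75 ± 0.16 (fold 1.69, edgeR adjusted p = 0.0103). Mcm3 lost its call without female replicate 3 (edgeR adjusted p = 0.0559) and without male replicate 2 (edgeR adjusted p = 0.0509), whereas Cdt1 and Mcm6 were called whichever library was left out, with log2 fold changes of 1.48 to 1.79 and 0.86 to 1.10.

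Mcm4 and Mcm10 passed the test more narrowly. Mcm4, another ring subunit, had 41.6, 40.6 and 47.4 CPM in female libraries, against 32.6, 33.4 and 30.5 CPM in male libraries. Mcm10, which acts when the loaded helicase is switched on, had 3.75, 5.46 and 5.39 CPM in female libraries, against 2.23, 2.43 and 3.13 CPM in male libraries. The sexes did not overlap for either gene. Log2 fold changes were 0.42 ± 0.12 for Mcm4 (fold 1.34, edgeR adjusted p = 0.0300) and 0.91 ± 0.26 for Mcm10 (fold 1.88, edgeR adjusted p = 0.0374). The call of Mcm4 was lost without female replicate 1, 2 or 3 (edgeR adjusted p = 0.0914, 0.0836 and 0.148) and without male replicate 1 or 2 (edgeR adjusted p = 0.0546 and 0.0923). That of Mcm10 was lost without female replicate 2 or 3 (edgeR adjusted p = 0.151 and 0.135) and without male replicate 1 or 2 (edgeR adjusted p = 0.100 and 0.131).

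**Figure D2:**
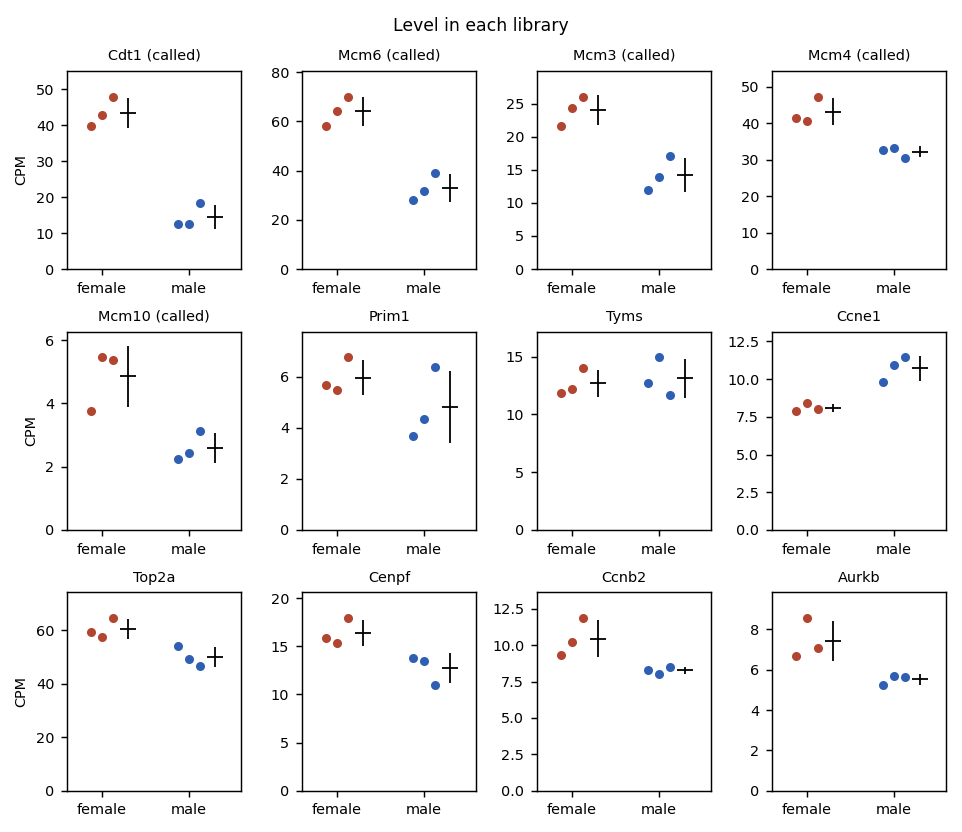
CPM in each library (points, replicates 1 to 3 from left to right) for the 5 called genes and the gene with the smallest p in each other role group, female in red and male in blue, with mean ± SD in black. Axes start at 0 and differ between panels. Cdt1, Mcm6, Mcm3, Mcm4 and Mcm10 show no overlap between the sexes, and Ccne1 lies lower in all 3 female libraries.

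The remaining 7 genes of the licensing and helicase group were not called, with log2 fold changes from -0.32 to 0.56. Mcm2 had 23.2, 22.6 and 23.6 CPM in female libraries, against 15.7, 20.1 and 18.05 CPM in male libraries, without overlap (0.36 ± 0.14, edgeR adjusted p = 0.106). Mcm5 (0.32 ± 0.22) and Mcm7 (0.23 ± 0.13) overlapped between the sexes. Cdc45, which joins the ring to form the active helicase, had a value of 0.56 ± 0.27 (edgeR adjusted p = 0.204). The GINS subunit genes Gins1 (-0.04 ± 0.34) and Gins2 (-0.32 ± 0.23) had the 2 values below 0. Gins1 rested on 28 to 65 counts per library, the fewest of the 39 genes. Without male replicate 3, edgeR called 7 replication genes higher, Cdc45 and Mcm7 joining the 5, and 0 lower.

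Because the Mcm2-7 subunits join in equal numbers in the ring, their RNA levels were set side by side per kb of principal transcript. In female libraries the order was Mcm6 (22.1 ± 2.03 CPM per kb), Mcm4 (12.0 ± 1.02), Mcm7 (10.6 ± 0.732), Mcm3 (7.93 ± 0.732), Mcm2 (6.85 ± 0.148) and Mcm5 (3.93 ± 0.240; SD, n = 3). In male libraries it was Mcm6 (11.3 ± 1.90 CPM per kb), Mcm7 (9.06 ± 1.16), Mcm4 (8.96 ± 0.411), Mcm2 (5.33 ± 0.647), Mcm3 (4.71 ± 0.851) and Mcm5 (3.15 ± 0.927; SD, n = 3). Mcm6 was the highest and Mcm5 the lowest subunit in all 6 libraries, with a ratio between them of 5.24 to 6.35 in female and 2.74 to 4.46 in male libraries. Mcm4 and Mcm7 lay within each other's SD in male libraries, as did Mcm2 and Mcm3, and so their order there is not resolved. With the gene lengths of the deposited table, Mcm4 led in male libraries (8.96 CPM per kb, against 7.06 for Mcm6), while Mcm6 still led in female libraries (13.8, against 12.0 for Mcm4).

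**Figure D3:**
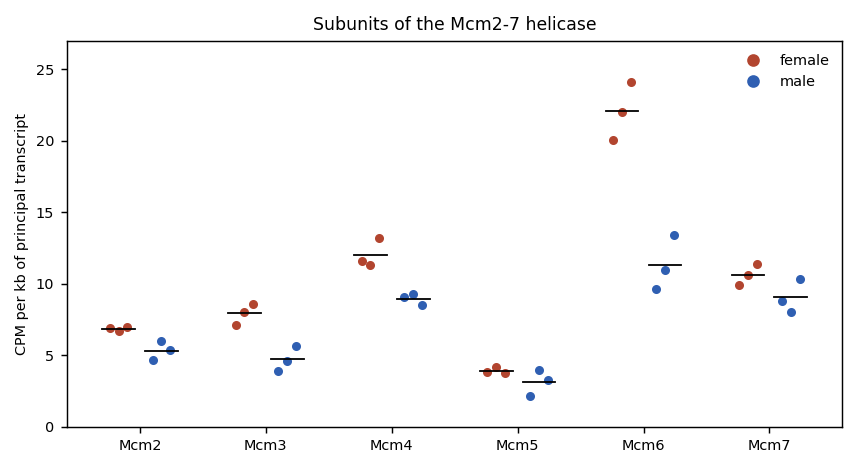
Level of the Mcm2-7 helicase subunit genes in CPM per kb of principal transcript, one point per library, female in red left of male in blue, with the mean as a black line. Mcm6 lies highest in both sexes (22.1 in female, 11.3 in male) and differs most between them.

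Upstream sequences are shown for 4 of the called genes and, beside them, for the mitotic genes Top2a and Ccnb2, because late G1 and mitotic genes are known to be read through different promoter elements. Each is the stretch of 250 bases before the RefSeq start on GRCm38.p6, 5′ to 3′ on the gene's strand, in lower case. Capitals mark words of 3 motifs on either strand: the E2F core (the word TTGGCGC, the word TTCCCGC, the word TTCGCGC or the word TTGCCGC), the cell cycle homology region of mitotic genes (CHR, TTTGAA) and the CCAAT box bound by NF-Y. The stretches are chr1:128359706-128359955 (minus strand) for Mcm6, chr1:20820313-20820562 (minus) for Mcm3, chr2:5012792-5013041 (minus) for Mcm10, chr8:122567765-122568014 (plus) for Cdt1, chr11:99024190-99024439 (minus) for Top2a and chr9:70421555-70421804 (minus) for Ccnb2. Words can overlap, as TTGGCGC and the reverse complement of TTCGCGC do in Mcm6.
Mcm6: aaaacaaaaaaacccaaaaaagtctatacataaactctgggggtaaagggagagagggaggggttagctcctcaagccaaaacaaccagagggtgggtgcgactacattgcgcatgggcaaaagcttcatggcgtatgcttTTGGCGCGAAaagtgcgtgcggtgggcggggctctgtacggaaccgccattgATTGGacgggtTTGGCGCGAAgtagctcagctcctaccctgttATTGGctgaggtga
Mcm3: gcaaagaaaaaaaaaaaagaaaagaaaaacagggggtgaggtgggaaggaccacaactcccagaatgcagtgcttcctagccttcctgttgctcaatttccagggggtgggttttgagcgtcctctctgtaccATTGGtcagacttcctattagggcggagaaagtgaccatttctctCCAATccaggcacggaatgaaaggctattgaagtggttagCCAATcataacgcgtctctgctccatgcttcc
Mcm10: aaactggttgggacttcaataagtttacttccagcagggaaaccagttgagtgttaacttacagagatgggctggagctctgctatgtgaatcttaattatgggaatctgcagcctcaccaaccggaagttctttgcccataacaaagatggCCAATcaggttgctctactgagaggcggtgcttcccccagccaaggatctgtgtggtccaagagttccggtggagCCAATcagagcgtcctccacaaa
Cdt1: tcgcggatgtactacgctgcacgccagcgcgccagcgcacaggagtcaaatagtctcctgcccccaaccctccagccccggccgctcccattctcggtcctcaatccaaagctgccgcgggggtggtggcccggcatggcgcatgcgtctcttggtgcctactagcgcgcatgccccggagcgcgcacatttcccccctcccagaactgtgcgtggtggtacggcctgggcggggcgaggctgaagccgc
Top2a: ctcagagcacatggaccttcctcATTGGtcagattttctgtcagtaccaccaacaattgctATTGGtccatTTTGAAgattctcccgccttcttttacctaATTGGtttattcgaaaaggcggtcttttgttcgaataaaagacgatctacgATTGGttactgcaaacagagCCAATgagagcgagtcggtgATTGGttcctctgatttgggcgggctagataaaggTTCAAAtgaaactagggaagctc
Ccnb2: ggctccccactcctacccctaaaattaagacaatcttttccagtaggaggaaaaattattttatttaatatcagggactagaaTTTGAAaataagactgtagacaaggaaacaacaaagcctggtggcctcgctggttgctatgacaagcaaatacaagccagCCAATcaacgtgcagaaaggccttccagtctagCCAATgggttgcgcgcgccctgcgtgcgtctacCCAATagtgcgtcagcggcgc

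Of the 39 genes, 32 had such a sequence. For 23 of these, the first 30 bases after the start were found in an annotated transcript of the gene. Of the sequences shown, those of Mcm6 and Ccnb2 were not among the 23, so their start is less certain. An E2F core stood in 8 of 18 replication and 3 of 14 mitotic sequences, compared with 7.97% of the sequences of 27025 genes. CHR words stood in 2 of 18 replication and 6 of 14 mitotic sequences (16.3% of all), and CCAAT in 12 of 18 and 13 of 14 (34.5% of all). Among the called genes, Mcm6 held 2 stretches of overlapping E2F words and 2 CCAAT words, Mcm3 held 3 CCAAT words and Mcm10 held 2, with no word of the other motifs. The Cdt1 stretch held none of these words, and Mcm4 had no entry. A word is a description of this stretch of sequence, not a bound site.

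In the deposited coordinates, Mcm3 (20802968 to 20820312) and Mcm6 (128331590 to 128359664) lie on chromosome 1, Mcm10 (4989714 to 5012791) on chromosome 2, Cdt1 (122568015 to 122573554) on chromosome 8 and Mcm4 (15623897 to 15637400) on chromosome 16. Of the 39 genes, 38 had the same coordinates in GENCODE release M21 of GRCm38. Chromosome 1 had 164 of 889 tested genes higher (18.4%), the largest share among chromosomes that hold one of the 39. Within 500 kb on either side of Cdt1, 3 of 20 tested genes were called higher, Piezo1 among them, and 1 lower. Around Mcm3 and Mcm6, 0 of 5 and 1 of 8 were called higher and 0 lower. Around Mcm4, 1 of 5 was higher (Spidr) and 0 lower, and around Mcm10, 1 of 8 was higher and 2 lower. The median log2 fold change of these neighbours was 0.39 for Mcm4, 0.14 for Mcm3, 0.16 for Mcm6, -0.16 for Mcm10 and 0.04 for Cdt1. The 5 called genes were overlapped by no gene averaging 10 or more counts, whereas 8 of the others were, each on the opposite strand. These were Mcm7, Cdc45 and Gins2 of the licensing group, and Rfc4, Ccne2, Ccna2, Cdc20 and Kif20a. Whether reads were counted by strand is not stated, and the effect on the counts of these genes was not tested.

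None of the 4 clamp, loader and primase genes was called by edgeR or DESeq2 (0 at an unadjusted p under 0.05, 2 by limma-voom). Pcna, the sliding clamp, had 50.2, 61.2 and 62.0 CPM in female libraries, against 49.6, 49.5 and 66.2 CPM in male libraries. The sexes overlapped, with both the highest and the lowest value in male libraries. Among the clamp loader subunits Rfc3 and Rfc4, the primase Prim1 and Pcna, log2 fold changes ran from -0.08 to 0.32. Prim1 had the smallest p of this group, with 5.67, 5.46 and 6.75 CPM in female libraries, against 3.68, 4.33 and 6.38 CPM in male libraries (0.32 ± 0.24, edgeR adjusted p = 0.431). Male replicate 3 lay within the female range for Prim1, and the other male libraries below it.

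None of the 3 nucleotide supply genes was called by edgeR, DESeq2 or limma-voom (0 at an unadjusted p under 0.05). Rrm1 and Rrm2, the subunits of ribonucleotide reductase, had log2 fold changes within 0.01 of 0 (SE 0.12 and 0.16). Tyms, which makes thymidylate, had 11.8, 12.2 and 14.0 CPM in female libraries, against 12.7, 14.9 and 11.7 CPM in male libraries (-0.05 ± 0.16, edgeR adjusted p = 0.869). Its sexes overlapped, and its sign turned without male replicate 2 (0.05).

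Of 3 regulators of the G1/S switch, Ccne1 and E2f1 had lower values in female libraries without passing the test. Ccne1, a cyclin that activates Cdk2 at S phase entry, had 7.86, 8.39 and 7.99 CPM in female libraries, against 9.78, 10.9 and 11.4 CPM in male libraries. All female values lay below all male values (-0.41 ± 0.15, edgeR adjusted p = 0.105), and 16.7% of all tested genes showed such a gap with female below. E2f1, the factor that drives many replication genes, also did not overlap, with 40.1 ± 2.69 CPM in female libraries and 46.4 ± 1.35 CPM in male ones (SD, n = 3 each; edgeR adjusted p = 0.233). Ccne2 overlapped (0.12 ± 0.24). Of the 10 replication genes outside the licensing group, edgeR called 0, 1 (Ccne1) had an unadjusted p under 0.05, DESeq2 called 0, and limma-voom with quality weights called Pcna and Rfc4 higher and Ccne1 lower.

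No mitotic gene passed the test by edgeR, although 15 of 17 had a log2 fold change above 0. Of the 17, 3 had an unadjusted p under 0.05 (Top2a, Cenpf and Aurkb, all higher), DESeq2 called 0, and limma-voom with quality weights called 7 higher and 0 lower. Over all genes tested, 15.4% were higher at an unadjusted p under 0.05, 11.2% by DESeq2 and 22% by limma-voom (3288 of 14932), so the mitotic share lay above the background by limma-voom and below it by edgeR and DESeq2. Without male replicate 3, edgeR called Birc5 and Cdk1 higher and 0 lower, with 16.2% of all genes higher in that fit. Female libraries lay above male libraries without overlap for 5 of the 17 (Top2a, Ccnb2, Aurkb, Bub1 and Cenpf), and 19.2% of all tested genes showed such a gap with female above.

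Top2a, the topoisomerase that untangles sister chromosomes, had 59.4, 57.5 and 64.5 CPM in female libraries, against 54.2, 49.4 and 46.6 CPM in male libraries. All female values were above all male values, by a small margin (0.27 ± 0.11, edgeR adjusted p = 0.131). The proliferation marker Mki67 overlapped between the sexes, with 36.9, 30.9 and 40.3 CPM in female libraries, against 36.7, 34.7 and 30.2 CPM in male libraries (0.09 ± 0.14).

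Of the cyclin genes that drive mitosis with Cdk1, Ccnb2 had 9.33, 10.2 and 11.8 CPM in female libraries, against 8.28, 8.04 and 8.48 CPM in male libraries (0.34 ± 0.16, edgeR adjusted p = 0.197). Its male libraries lay close together and below the female ones. Ccnb1 (0.38 ± 0.18), Cdk1 (0.20 ± 0.21), Cdc20, an activator of the anaphase promoting complex (0.15 ± 0.20), and Ccna2 (-0.06 ± 0.18) overlapped. Ccnb2-ps, a pseudogene with a mean of 49.5 counts, may share reads with Ccnb2, and Exosc9, which overlaps Ccna2 on the other strand, was itself called higher.

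Among mitotic kinases and survivin, Aurkb had 6.67, 8.55 and 7.10 CPM in female libraries, against 5.23, 5.70 and 5.64 CPM in male libraries. Aurkb encodes the kinase of the chromosomal passenger complex, and its sexes did not overlap (0.43 ± 0.18, edgeR adjusted p = 0.149). Birc5 (survivin, of the same complex), Plk1, Bub1 and Aurka had log2 fold changes of 0.26 to 0.36.

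In the kinesin and centromere group, Cenpf, a large kinetochore protein, had 15.8, 15.4 and 17.9 CPM in female libraries, against 13.8, 13.5 and 10.9 CPM in male libraries (0.36 ± 0.15, edgeR adjusted p = 0.148). Its sexes did not overlap. The spindle motor gene Kif11 (0.24 ± 0.16), the kinetochore motor gene Cenpe (0.19 ± 0.16) and the cytokinesis kinesin gene Kif20a (0.12 ± 0.17) overlapped, as did Cenpa, the centromeric histone (-0.08 ± 0.14).

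Replication and mitotic genes were then set against each other within each library. The mean log2 CPM over the 22 replication genes was 3.69, 3.78 and 3.89 in female libraries, against 3.40, 3.47 and 3.69 in male libraries. Over the 17 mitotic genes it was 3.64, 3.75 and 3.84 in female libraries, against 3.45, 3.51 and 3.59 in male libraries. Male replicate 3 reached the level of female replicate 1 for the replication genes (lower by under 0.01), but not for the mitotic genes. The replication mean less the mitotic mean was 0.05, 0.03 and 0.05 in female libraries, against -0.06, -0.04 and 0.10 in male libraries. These differences overlapped, since male replicate 3 had the highest of all 6, and the female mean less the male mean was 0.04 (0.09 without male replicate 3, 0.01 without male replicate 1 and 0.02 without male replicate 2). With medians over the genes in place of means that difference was -0.12, so no direction is given for it.

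**Figure D4:**
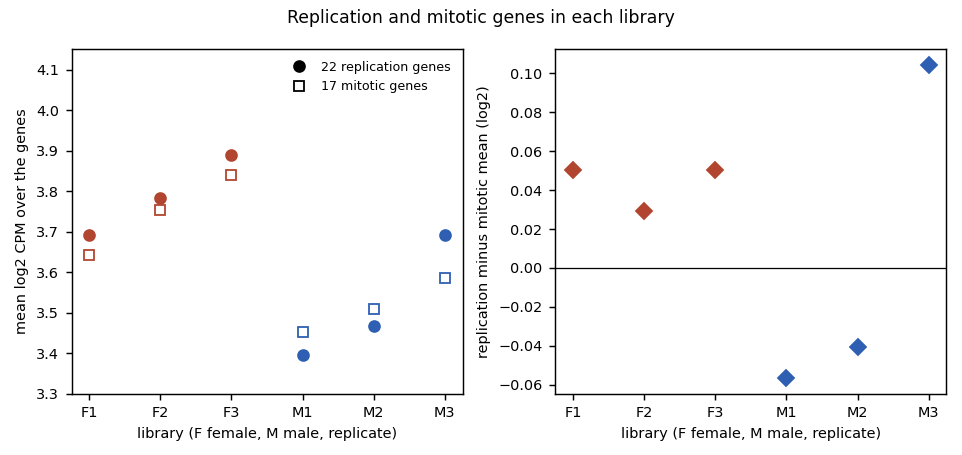
Left, mean log2 CPM over the 22 replication genes (filled circles) and the 17 mitotic genes (open squares) in each library, with an axis that does not start at 0. Right, the first less the second, from -0.06 in male replicate 1 to 0.10 in male replicate 3. Female libraries are red and male libraries blue.

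Summed over the genes, replication RNA came to 434, 467 and 497 CPM in female libraries, against 349, 369 and 411 CPM in male libraries. Mitotic RNA summed to 265, 273 and 298 CPM in female libraries, against 240, 240 and 246 CPM in male libraries. Neither sum overlapped between the sexes. Outside the licensing group, replication RNA summed to 186, 202 and 206 CPM in female libraries, against 195, 199 and 218 CPM in male libraries. Those smaller sums overlapped. The ratio of the full replication sum to the mitotic sum was 1.64 to 1.71 in female and 1.45 to 1.67 in male libraries, which overlap. By role, the licensing and helicase genes averaged 3.69, 3.80 and 3.97 log2 CPM in female libraries, against 3.16, 3.28 and 3.53 in male libraries. The other replication genes averaged 3.69, 3.76 and 3.79 log2 CPM in female libraries, against 3.68, 3.70 and 3.89 in male libraries. The sexes were separate in the licensing group, which holds the 5 called genes, and overlapped in the other replication genes. The 7 licensing genes not called averaged 3.05, 3.11 and 3.31 log2 CPM in female libraries, against 2.80, 2.92 and 3.16 in male libraries. Their sexes overlapped, as male replicate 3 lay above female replicates 1 and 2. Of these 7, 5 had a log2 fold change above 0, with a median of 0.23. They were picked as not called in the same data. Their overlap therefore cannot show whether the separation extends beyond the called genes.

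Libraries of a sex differed among themselves in these genes as well. In male replicate 3, 17 of 22 replication genes lay above the male mean of their log2 CPM, but 9 of 17 mitotic genes did. Female replicate 3 lay above the female mean for 17 of 22 replication and 12 of 17 mitotic genes, and held the highest value of the 6 libraries for 18 of the 39 genes. Male replicate 1 held the lowest for 13. The median SD of log2 CPM within a sex was 0.14 in female and 0.24 in male libraries for replication genes, 0.17 and 0.14 for mitotic genes, and 0.15 and 0.25 for all genes tested.

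Other genes of the same pathways, from lists drawn up for this comparison, gave few calls by edgeR. Of 58 further replication genes, 3 rose and 0 fell by edgeR (13 and 1 at an unadjusted p under 0.05, 5 and 1 by DESeq2, 21 and 1 by limma-voom), with a median log2 fold change of 0.21. Those that rose were Dut, which keeps uracil out of DNA (68.8 ± 1.68 CPM in female libraries, 29.3 ± 10.1 CPM in male ones, edgeR adjusted p = 0.0028), Dnmt1, the maintenance methyltransferase (0.40 ± 0.11), and Dbf4, the activator of the origin-firing kinase Cdc7 (0.72 ± 0.21). Dut was called whichever library was left out (highest edgeR adjusted p = 0.0199). Dnmt1 lost its call without any 1 of the female libraries or male replicates 1 and 2 (highest edgeR adjusted p = 0.178), and Dbf4 without female replicates 1 or 3 or male replicates 1 or 2 (highest edgeR adjusted p = 0.165). Pole4, a DNA polymerase epsilon subunit, missed the threshold (0.46 ± 0.14, edgeR adjusted p = 0.0537). None of the 6 origin recognition complex genes was called by edgeR or DESeq2 (2 at an unadjusted p under 0.05, 3 by limma-voom, all higher). With the 22, 8 of 80 replication genes were higher by edgeR, close to the 9.68% of all genes. The share of the 58 called higher was below the background by edgeR (5.17%) and by DESeq2 (11.2% of all genes). It was above the background at an unadjusted p under 0.05 (15.4% of all genes) and by limma-voom (22%). Fold changes were above 0 in 45 of the 58, compared with 49.0% of all genes tested.

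Of 60 further mitosis genes, 3 rose and 0 fell by edgeR (13 and 2 at an unadjusted p under 0.05, 6 and 1 by DESeq2, 22 and 3 by limma-voom), with a median of 0.22. The kinetochore gene Nuf2 had 9.71 ± 0.480 CPM in female libraries and 6.36 ± 0.141 CPM in male ones (edgeR adjusted p = 0.0231), the kinesin gene Kif14 rose by 1.02 ± 0.26 and the condensin and cohesin family gene Smc2 by 0.55 ± 0.17. Nuf2 lost its call without any 1 of the female libraries or male replicates 1 and 2 (highest edgeR adjusted p = 0.116). Smc2 lost it without any 1 of the female libraries or male replicate 2 (highest edgeR adjusted p = 0.185), and Kif14 without female replicates 2 or 3 or male replicate 2 (highest edgeR adjusted p = 0.113). Gtse1, a microtubule-associated regulator of p53, had a value of -0.44 ± 0.14 (edgeR adjusted p = 0.0505). With the 17, 3 of 77 mitosis genes (3.90%) were higher by edgeR. The share of the 60 called higher was below the background by edgeR (9.68% of all genes) and DESeq2 (11.2%). It was above the background at an unadjusted p under 0.05 (15.4% of all genes) and by limma-voom (22%). Fold changes were above 0 in 51 of the 60, compared with 49.0% of all genes tested. Without male replicate 3, 12 of the 58 further replication genes and 10 of the 60 further mitosis genes were higher, and 2 of each list lower, when 16.2% of all genes were higher and 16.4% lower.

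Among 27 G1 cyclins, their kinases and E2F/RB regulators, 1 rose and 2 fell by edgeR (1 and 7 at an unadjusted p under 0.05, 1 and 4 by DESeq2, 3 and 10 by limma-voom), with a median of -0.02. Of all genes tested, 8.62% were lower by edgeR, 14.4% at an unadjusted p under 0.05, 10.8% by DESeq2 and 22% by limma-voom. The share lower in the list was below that background by edgeR and above it by the other counts. Its share higher was below the background by each count. Without male replicate 3, 2 were higher and 9 lower, when 16.2% of all genes were higher and 16.4% lower. Of the cyclin D genes, which act at the opening of G1, Ccnd2 and Ccnd1 fell and Ccnd3 was not called (-0.19 ± 0.10, edgeR adjusted p = 0.244). Ccnd2 had 252, 211 and 207 CPM in female libraries, against 600, 563 and 348 CPM in male libraries (-1.17 ± 0.20, edgeR adjusted p = 0.00229). Its male replicate 3 was the lowest male library and still above every female library. Ccnd1 had 409.6 ± 14.9 CPM in female libraries and 535 ± 56.1 CPM in male ones (-0.38 ± 0.11, edgeR adjusted p = 0.0440). E2f2, an activating E2F, rose, with 1.89 ± 0.266 CPM in female libraries and 0.472 ± 0.0946 CPM in male ones (edgeR adjusted p = 0.00762). Ccnd2 and E2f2 were called whichever library was left out (highest edgeR adjusted p = 0.0229 and 0.0454), whereas Ccnd1 lost its call without any 1 of the female libraries or male replicates 1 and 2 (highest edgeR adjusted p = 0.192). E2f2 lay near the floor, with 0.39, 0.57 and 0.46 CPM in male libraries, where 3 counts were 0.15, 0.13 and 0.17 CPM. The fit of genes with a mean of at least 50 counts left E2f2 out. E2f8, a repressing E2F, had a value of -0.51 ± 0.16 (edgeR adjusted p = 0.0520).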

How the data were processed

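The authors deposited raw counts, whole numbers for each gene in each library. HISAT2 2.0.5 and featureCounts 1.5 are named in the submitters' processing notes. Genome build and strand setting: not given in the sources used here. The authors' table also holds a gene length, used here only where named. Per the labels, libraries were poly-A selected and grouped by sex. The test across genes was that of edgeR 4.0.16 run in R 4.3.3 (quasi-likelihood F test, TMM scaling, robust dispersions, filterByExpr with minimum count 10) and Benjamini-Hochberg adjustment over 14932 genes, and the test was checked on simulated counts. SE is the log2 fold change divided by the root of F. Mean log2 CPM used a prior count of 2. Lengths per kb are those of the longest APPRIS principal transcript in GENCODE release M21. Promoters are RefSeq sequences. The genes and lists were chosen with earlier results of these data known. Library values and tests are given for called genes and for the smallest p in each role group, and the 4 smallest p of each further list are named. Other named genes were picked with their values in view. The alternatives tried comprised DESeq2 1.42.0, limma-voom (limma 3.58.1) with quality weights, scaling by RLE or upper quartiles, other filters, a replicate block, each library left out, an adjusted p under 0.01 and, added after seeing the data, a length and GC offset.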

Additional observations from a re-analysis of the deposited data

How the results depend on the processing

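Cdt1 and Mcm6 were called under every alternative run. Replication genes called higher (5) and lower (0) and mitotic genes called higher (0) and lower (0) by edgeR did not change with RLE or upper quartile scaling, DESeq2, no filter or a mean of at least 50 counts, which left out Gins1. Limma-voom with quality weights called 9 replication genes higher, 1 lower and 7 mitotic genes higher, and 3288 of all genes higher and 3283 lower. At an adjusted p under 0.01, 2 replication genes were higher, and 900 of all genes higher and 835 lower. The length and GC offset called Ccne1 lower (1 replication gene lower), with 1875 of all genes higher and 1921 lower against 1446 and 1287. Leaving out each library gave 2 to 7 replication genes higher, 0 to 2 mitotic genes higher, and 967 to 2508 of all genes higher and 903 to 2543 lower, the highest values coming without male replicate 3. The median log2 fold change then ran from 0.11 to 0.28 for replication and 0.20 to 0.30 for mitotic genes, and the difference between their means from 0.01 to 0.09. That difference was -0.12 with medians over the genes. The log2 fold change of Tyms ran from -0.133 to 0.0459 over the libraries left out, above 0 only without male replicate 2. In each case the cause was not tested.

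Same-numbered libraries of the sexes deviated together unevenly (correlations of 0.206, -0.00405 and 0.152). The same-numbered pair gave the highest value for female replicates 1 and 3. For female replicate 2 the highest was the pair with male replicate 3 (0.104). So few values cannot decide whether same-numbered libraries form pairs, and the labels do not say. With the replicate block, the same 5 replication genes and 0 mitotic genes were called. Of all genes, 1619 were then higher and 1449 lower, against 1446 and 1287 without the block. Depth limits Gins1, Ccne2, Mcm10 and Cdc6 most, the genes with the fewest counts.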
